A study of Mus musculus with 18 samples.

Results

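Expression of 10 transcription factors of the enteroendocrine lineage was followed through mouse cells of the small intestinal crypt, sorted on how strongly a fluorescent reporter glowed. The factors were Neurog3, Pax4, Insm1, Nkx2-2, Neurod1, Rfx6, St18, Isl1, Pax6 and Foxa2. They were chosen by name for their known roles in endocrine differentiation of the gut and pancreas, with earlier results of these data known. Each was read from the probe set annotated with exactly its symbol, which gave 10 probe sets for 10 of the 19938 genes measured. Single crypt cells were sorted by GFP signal into a reporter-high, a reporter-low and a reporter-negative gate. The reporter reads Fltp (Cfap126), a gene of planar cell polarity. Cells of all 3 gates came from FltpZV/+ mice, which carry 1 reporter allele, of the C57Bl6/J strain at 4 months of age. Every gate was measured on 2 microarrays, each with pooled RNA of 2 animals. Whether the gates shared animals is not given by the labels, so p-values measure only the spread between these arrays, and no cells without the reporter allele were part of these comparisons. The other 12 of the 18 samples of the series belong to a lineage-tracing line and were not analysed here.

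Enteroendocrine cells are the hormone-secreting cells of the gut epithelium and arise in the crypts from progenitors that escape Notch signalling. Neurog3, a basic helix-loop-helix factor, is switched on briefly in these progenitors and starts the endocrine programme. Neurod1, Insm1, Nkx2-2, Rfx6 and related factors act downstream of it, and Isl1 and Pax6 are known from later, hormone-producing cells. The question set to the arrays was therefore whether the early and the late factors were distributed alike over the reporter gates.

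Levels are RMA values, a summary of probe brightness on the log2 scale, so a difference of 1 is a factor of 2 in signal. They compare arrays for 1 probe set and do not rank different genes. Values below 4.23, the 95th percentile over 1207 odorant and pheromone receptor genes, were treated as background. The 10 factors all averaged above it over the 6 arrays. Array medians lay between 4.54 and 4.74, and replicate arrays correlated across genes at 0.946 in the reporter-high, 0.975 in the reporter-low and 0.981 in the reporter-negative gate. Cfap126 itself had values of 5.15 and 5.0 on reporter-high, 5.16 and 6.13 on reporter-low and 5.39 and 4.79 on reporter-negative arrays. The sort was by reporter protein, and its messenger RNA passed no test between gates (limma, Benjamini-Hochberg adjusted p = 0.983 for high and 0.528 for low against negative cells, and 0.366 for high against low cells). In sorted bulk RNA, fewer cells of a type and less RNA per cell cannot be told apart.

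In reporter-low against reporter-negative cells, 8 of the 10 factors rose and none fell. These were Rfx6, Neurod1, Isl1, Pax6, Nkx2-2, St18, Insm1 and Pax4, while Neurog3 and Foxa2 did not pass the test. The test was limma over all 19938 genes, two-sided, with a call at a Benjamini-Hochberg adjusted p under 0.05. Across the whole array, 3.42% of genes were called higher and 2.54% lower in this comparison. The median change of the 10 factors was 3.18 on the log2 scale, or 2.96 with the 4 factors that were dark in negative cells set at their lower bound, against -0.03 over all genes. The low gate had the highest mean for 9 of them, Foxa2 being the exception.

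**Figure D1:**
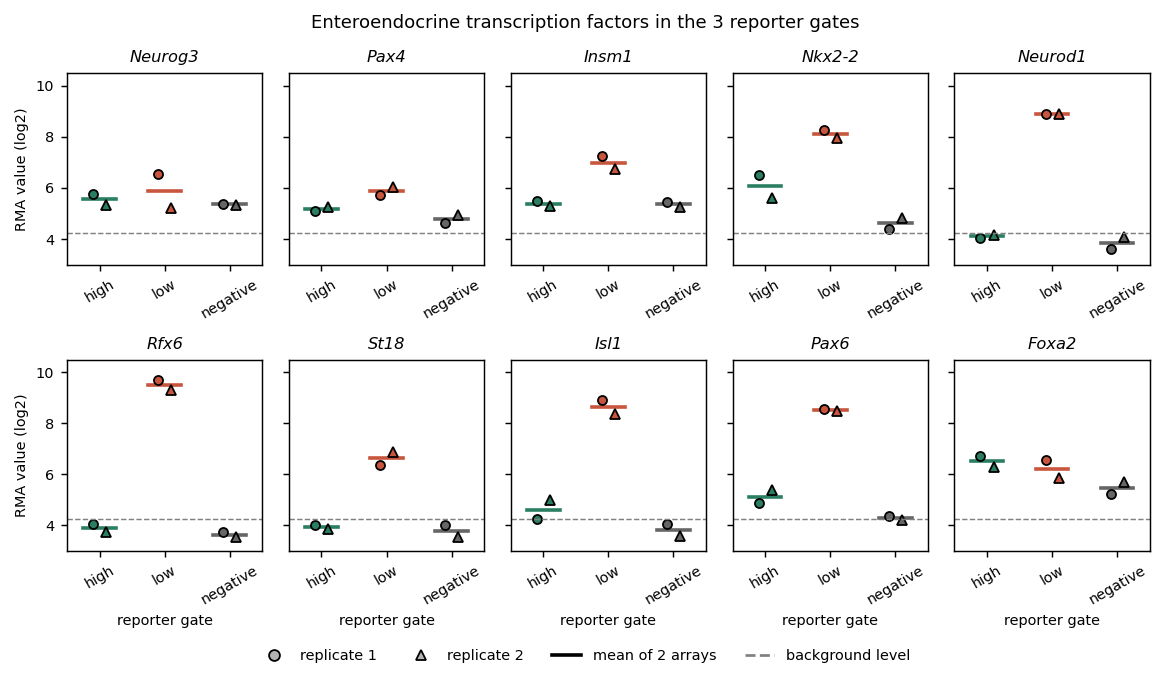
RMA values (log2, vertical axis) of the 10 factors in the reporter-high, reporter-low and reporter-negative gates, with 1 point per array, a bar for the mean of the 2 arrays and a dashed line at the background level of 4.23. Neurod1, Rfx6, St18, Isl1, Pax6 and Nkx2-2 stand well above the other gates in low cells, while the low arrays of Neurog3, at 6.54 and 5.23, lie on both sides of the high and negative arrays.

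Promoter sequences are shown for Neurog3, which was not called, and for 4 factors that rose, since basic helix-loop-helix factors such as Neurog3 and Neurod1 bind E-boxes, 6-base motifs spelled CANNTG. The windows run from 250 bases before to 50 bases after the start site and come from RefSeq on GRCm38.p6, in which 7 of the 10 factors matched an entry (Pax4, Insm1 and St18 did not). They lie at chr10:62132840-62133139 on the plus strand for Neurog3, chr2:79456587-79456886 on the minus strand for Neurod1, chr10:51685268-51685567 on the plus strand for Rfx6, chr2:147186353-147186652 on the minus strand for Nkx2-2 and chr13:116309639-116309938 on the minus strand for Isl1. Each is printed 5′ to 3′ along the gene, with every CANNTG in capitals.
Neurog3: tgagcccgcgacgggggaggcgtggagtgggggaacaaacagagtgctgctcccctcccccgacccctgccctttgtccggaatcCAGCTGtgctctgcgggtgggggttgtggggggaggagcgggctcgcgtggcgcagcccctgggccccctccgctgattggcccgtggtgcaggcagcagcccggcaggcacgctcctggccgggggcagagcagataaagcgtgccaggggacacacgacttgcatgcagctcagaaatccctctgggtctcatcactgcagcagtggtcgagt
Neurod1: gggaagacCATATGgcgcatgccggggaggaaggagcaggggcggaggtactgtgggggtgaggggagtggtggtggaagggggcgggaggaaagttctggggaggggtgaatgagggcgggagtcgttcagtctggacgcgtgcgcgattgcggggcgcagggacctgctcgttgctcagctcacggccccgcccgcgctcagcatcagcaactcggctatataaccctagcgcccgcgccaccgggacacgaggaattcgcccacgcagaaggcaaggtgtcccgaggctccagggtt
Rfx6: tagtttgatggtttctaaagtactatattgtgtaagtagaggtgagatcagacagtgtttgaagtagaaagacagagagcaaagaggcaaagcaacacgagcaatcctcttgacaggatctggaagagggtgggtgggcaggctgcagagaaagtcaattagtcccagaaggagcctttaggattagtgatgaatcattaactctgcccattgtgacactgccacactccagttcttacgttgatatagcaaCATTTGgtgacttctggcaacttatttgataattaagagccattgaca
Nkx2-2: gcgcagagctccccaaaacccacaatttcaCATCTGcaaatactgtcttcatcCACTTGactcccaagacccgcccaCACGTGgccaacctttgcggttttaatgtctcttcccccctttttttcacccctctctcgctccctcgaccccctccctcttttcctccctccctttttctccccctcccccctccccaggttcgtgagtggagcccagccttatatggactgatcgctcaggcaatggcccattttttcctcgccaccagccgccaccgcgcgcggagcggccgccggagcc
Isl1: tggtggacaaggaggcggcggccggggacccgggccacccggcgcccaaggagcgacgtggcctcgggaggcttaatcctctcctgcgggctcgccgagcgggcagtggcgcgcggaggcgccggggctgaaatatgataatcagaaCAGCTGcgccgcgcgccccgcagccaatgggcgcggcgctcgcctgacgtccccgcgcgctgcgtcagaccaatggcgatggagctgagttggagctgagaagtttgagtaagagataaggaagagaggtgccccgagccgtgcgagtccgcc
A CANNTG match was present in 72.3% of all 32851 RefSeq promoters of this length and in 7 of the 10 windows of the matched factors (Pax6 has 2 windows and Foxa2 3, of which 1 each held a match), so its presence does not set the factors apart. The form CAGCTG, read on both strands like the others and itself a CANNTG match, occurred in 16.3% of all promoters and in 2 of the 10 windows, at 165 bases before the start of Neurog3 and 103 bases before the start of Isl1. The form CAGATG occurred in 17.2% of all promoters and in 1 of the 10 windows, that of Nkx2-2, where it reads CATCTG on the printed strand 220 bases before the start. Nkx2-2 held 3 CANNTG matches, and Neurod1 and Rfx6 held 1 each, in Rfx6 just after the start site. A match is a description of the letters, not a mapped binding site.

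Neurog3, which initiates the endocrine programme, was above background on every array and was called in no comparison. Its values were 5.76 and 5.33 on reporter-high, 6.54 and 5.23 on reporter-low and 5.39 and 5.33 on reporter-negative arrays. The first low array was the highest of the 6 and the second the lowest. Low cells differed from negative cells by 0.52 ± 0.41 (SE), with a 95% interval from -0.45 to 1.50 and an adjusted p of 0.639. The gap between the 2 low arrays was 1.31, and 1.2% of all genes had a gap as large. Without the first low array the change was -0.13, and without the second it was 1.18, with neither passing the test. The first low array also had the higher mean over 8 enterocyte markers, 10.02 against 8.95 on the second, and higher Gast, at 11.89 against 9.11. The first array was the higher in the other gates too, for Neurog3 as for these genes. Enterocyte means were 9.19 against 8.55 on reporter-high and 10.53 against 10.05 on reporter-negative arrays. Gast was 12.76 against 11.01 on reporter-high and 4.99 against 4.88 on reporter-negative arrays. The part of that imbalance between first and second arrays in the Neurog3 gap was not tested.

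Pax4, a paired-box repressor that acts early after Neurog3, rose modestly in low cells. It had 5.09 and 5.25 on reporter-high, 5.73 and 6.05 on reporter-low and 4.63 and 4.95 on reporter-negative arrays. Both low arrays were above the other 4, and both high arrays were above the negative pair. The increase in low over negative cells was 2.15-fold (log2 1.10 ± 0.22, adjusted p = 0.0324 by limma). This was the least secure of the 8 calls, since it was lost without any 1 of the 4 arrays compared (adjusted p between 0.0815 and 0.221) and after quantile normalization (0.0558).

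The 5 factors placed downstream of Neurog3 all rose in low cells, by amounts that ranged widely. Insm1, a zinc-finger transcriptional repressor that acts within endocrine and neuronal differentiation, had 5.49 and 5.28 on reporter-high, 7.25 and 6.73 on reporter-low and 5.47 and 5.24 on reporter-negative arrays. The high and negative arrays overlapped and the low pair stood apart, 3.11-fold above negative cells (log2 1.64 ± 0.24, adjusted p = 0.0123). That call was lost without either negative array or without the first low array (adjusted p of 0.0889, 0.107 and 0.0604). Nkx2-2, a homeobox factor needed for several endocrine subtypes, had 6.52 and 5.60 on reporter-high, 8.28 and 7.98 on reporter-low and 4.38 and 4.84 on reporter-negative arrays. It was the only downstream factor whose 3 pairs of arrays did not overlap, low above high above negative, and it was 11.5-fold higher in low than in negative cells (log2 3.52 ± 0.34, adjusted p = 0.00322).

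Neurod1, a direct Neurog3 target that promotes cell-cycle exit and differentiation, had 4.05 and 4.14 on reporter-high, 8.92 and 8.90 on reporter-low and 3.60 and 4.09 on reporter-negative arrays. It was at background in both other gates and at least 25.7-fold higher in low cells (adjusted p = 0.000208), with the 2 low arrays 0.02 apart. Rfx6, a winged-helix factor required for islet and gut endocrine cells, had 4.04 and 3.72 on reporter-high, 9.70 and 9.30 on reporter-low and 3.72 and 3.55 on reporter-negative arrays. It too was dark outside the low gate, and was at least 38.7-fold higher in low than in negative cells (adjusted p = 0.000198). An "at least" value sets the bright gate against the background level, because no array of the dimmer gate exceeded it. St18, a zinc-finger factor of the Myt1 family, had 4.00 and 3.84 on reporter-high, 6.38 and 6.87 on reporter-low and 4.03 and 3.53 on reporter-negative arrays. Its increase over negative cells was at least 5.27-fold (adjusted p = 0.00294), and it shared the on and off pattern of Neurod1 and Rfx6 at a smaller size.

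The 2 late factors followed the same pattern with some signal in the high gate. Isl1, a LIM-homeobox factor of hormone-producing cells, had 4.23 and 5.0 on reporter-high, 8.90 and 8.36 on reporter-low and 4.05 and 3.59 on reporter-negative arrays. It was at background in negative cells, barely above it on the first high array, and at least 21.2-fold higher in low than in negative cells (adjusted p = 0.000959). Pax6, a paired-box factor that activates hormone genes, had 4.86 and 5.39 on reporter-high, 8.55 and 8.50 on reporter-low and 4.37 and 4.21 on reporter-negative arrays. The 3 gates did not overlap, and low cells were 18.9-fold above negative cells (log2 4.24 ± 0.23, adjusted p = 0.000455).

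Foxa2, a forkhead factor of the gut endoderm that is not restricted to endocrine cells, did not share the pattern. It had 6.73 and 6.30 on reporter-high, 6.57 and 5.87 on reporter-low and 5.22 and 5.70 on reporter-negative arrays. High and low arrays overlapped, and both pairs lay above the negative pair. Low cells differed from negative cells by 0.76 ± 0.31 (95% interval 0.02 to 1.49), which did not pass after adjustment (adjusted p = 0.252).

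Set in order of role, the change in low over negative cells on the log2 scale was 0.52 for the initiator Neurog3 and 1.10 for the early factor Pax4. Among the downstream factors it was 1.64 for Insm1, 3.52 for Nkx2-2, and at least 2.40 for St18, 4.68 for Neurod1 and 5.27 for Rfx6. For the late factors it was 4.24 for Pax6 and at least 4.41 for Isl1. The interval of Neurog3 ended at 1.50 and that of Pax4 at 1.61, below the lower ends for Nkx2-2 (2.72) and Pax6 (3.69). That of Insm1, from 1.07 to 2.20, overlapped those of Neurog3 and Pax4 and also ended below those of Nkx2-2 and Pax6. St18, Neurod1, Rfx6 and Isl1 were dark in negative cells and have a lower bound without an interval. Changes of different probe sets were not tested against each other, since probe sets differ in how far they compress a change, most of all near background.

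In reporter-high against reporter-negative cells, none of the 10 factors was called by limma, the lowest adjusted p being 0.063 for Nkx2-2. On the whole array 4.71% of genes were called in this comparison, 1.36% higher and 3.35% lower. Both high arrays lay above both negative arrays for 5 factors, Nkx2-2, Foxa2, Pax6, Isl1 and Pax4, and the same was true of 32.9% of all genes. The differences were 1.45 ± 0.34 for Nkx2-2 (95% interval 0.65 to 2.25, adjusted p = 0.063), 1.06 ± 0.31 for Foxa2 (0.32 to 1.79, adjusted p = 0.112) and 0.84 ± 0.23 for Pax6 (0.29 to 1.38, adjusted p = 0.0962). Isl1 differed by at least 0.39 against the background level (adjusted p = 0.221), and Pax4 by 0.39 ± 0.22 (adjusted p = 0.335).

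Neurod1, Rfx6 and St18 were not above background on any high or negative array, so no fold is given for them. Insm1 differed by 0.03, with an interval from -0.53 to 0.59, and Neurog3 by 0.19, with an interval from -0.79 to 1.16. Whether any factor was called depended on single arrays and on which genes were tested. Without the second high array Nkx2-2 had a change of 1.91 and an adjusted p of 0.0332, and without the first Pax6 had 1.11 and 0.0305. With only the 12891 genes above background tested, Nkx2-2 had an adjusted p of 0.0457.

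In reporter-high against reporter-low cells, 7 of the 10 factors fell and none rose, beside 3.89% of all genes called lower and 1.01% called higher. Rfx6 was at least 38.7-fold, Neurod1 at least 25.7-fold and St18 at least 5.27-fold lower in high cells (adjusted p of 0.000308, 0.000378 and 0.00285). Isl1 fell by 4.02 ± 0.33 and Pax6 by 3.40 ± 0.23 on the log2 scale (adjusted p = 0.00165 and 0.000805). Nkx2-2 fell by 2.07 ± 0.34 (adjusted p = 0.0205), a call lost without either low array (0.119 and 0.0791). Insm1 fell by 1.61 ± 0.24 (adjusted p = 0.014), a call lost without the first low array (0.0790) or the second high array (0.0530).

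The 3 factors that did not pass in this comparison were Pax4, Neurog3 and Foxa2, the same 3 that had the smallest changes between low and negative cells. Pax4 differed by -0.72 (95% interval -1.23 to -0.21, adjusted p = 0.122) although its high and low arrays did not overlap. Neurog3 differed by -0.34 (interval -1.31 to 0.64) and Foxa2 by 0.30 (interval -0.44 to 1.03). The median over the 10 factors was -2.39, or -2.24 with dark factors at their bound, against 0.13 over all genes. Comparisons with low cells share the same 2 low arrays.

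**Figure D2:**
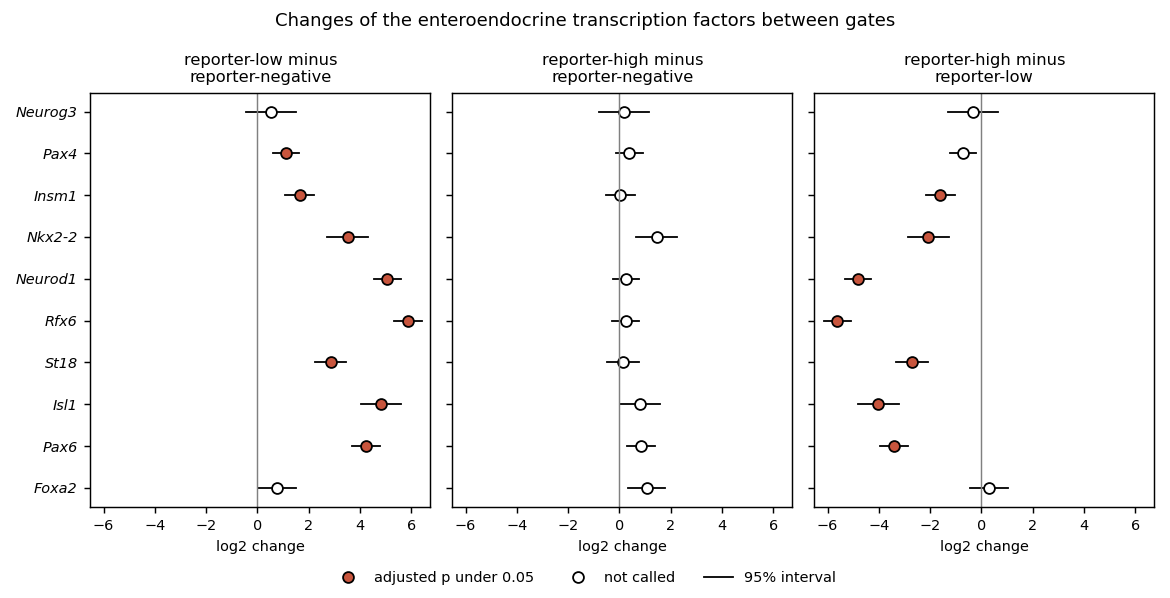
Log2 change (horizontal axis) of each factor with its 95% interval in low minus negative, high minus negative and high minus low cells, with filled points where the limma adjusted p was under 0.05. Filled points number 8, 0 and 7, and Neurog3 and Foxa2 are open in all 3 comparisons. Changes are the fitted ones, so for factors dark in the dimmer gate they depend on values within background.

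Further transcription factors known from gut endocrine or islet cells were read from a list of 33, of which 27 were measured. Like the other gene lists here, it was chosen with earlier results of these data known. Its counts are therefore descriptive and no independent support. In low against negative cells 6 of the 27 rose and none fell, beside 3.42% and 2.54% of all genes. The median change was 0.10, against -0.03 over all genes. Peg3, a zinc-finger factor, had 4.92 and 4.72 on reporter-high, 9.49 and 9.33 on reporter-low and 4.01 and 3.87 on reporter-negative arrays. Its low pair stood apart from the other 4 arrays, at least 36.3-fold above negative cells (adjusted p = 0.000198). Etv1, an ETS factor, had 4.81 and 4.85 on reporter-high, 8.73 and 8.05 on reporter-low and 4.04 and 3.97 on reporter-negative arrays, and was at least 17.9-fold higher in low than in negative cells (adjusted p = 0.000455). Myt1, a zinc-finger factor related to St18 that works alongside Neurog3 in the pancreas, was at least 4.02-fold higher (adjusted p = 0.00255).

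Runx1t1, a transcriptional corepressor, was at least 4.07-fold higher in low than in negative cells (adjusted p = 0.0046). The remaining calls were Prox1, a homeobox factor, at least 4.57-fold (adjusted p = 0.0151), and Rfx3, a ciliogenic and islet factor of the same family as Rfx6, 4.56-fold (adjusted p = 0.0117). Prox1 and Runx1t1 lost their calls without either negative array, and Rfx3 without the first negative or the second low array. Without the first negative array 3 of the 6 remained called, Peg3, Etv1 and Myt1. Factors of this list that did not pass included Pdx1, which specifies duodenum and pancreas, at 0.50 ± 0.59 (adjusted p = 0.806), and Foxa1, the paralog of Foxa2, at 0.95 ± 0.41 (adjusted p = 0.287). Pdx1 had 6.70 on the first and 5.01 on the second low array, a split in the same direction as that of Neurog3. Its first array was the higher in the other gates too, at 4.88 against 4.14 on reporter-high and 5.84 against 4.87 on reporter-negative arrays.

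In high against negative cells, Runx1t1 was the only one of the 27 called, with 5.21 and 5.32 on reporter-high against 3.66 and 3.79 on reporter-negative arrays. Across all genes 4.71% were called there, 1.36% higher and 3.35% lower, and 1 call is too few to set the list apart. Runx1t1 is taken up here as a single gene. It was at least 2.05-fold higher (adjusted p = 0.0302), and the call was lost without either negative array (0.195 and 0.167), without the second high array (0.0806) and with array weights (0.0553). Peg3 had an adjusted p of 0.0506, the HMG-box factor Tox3 of 0.115 and Etv1 of 0.121 in the same comparison. In high against low cells 5 fell and none rose, beside 3.89% and 1.01% of all genes. Peg3 fell by 4.59, Etv1 by 3.56, Myt1 by 2.10, Tox3 by 1.85 and Rfx3 by 1.62 on the log2 scale. The call of Rfx3 was lost without any 1 of the 4 arrays and that of Tox3 without either low array.

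**Figure D3:**
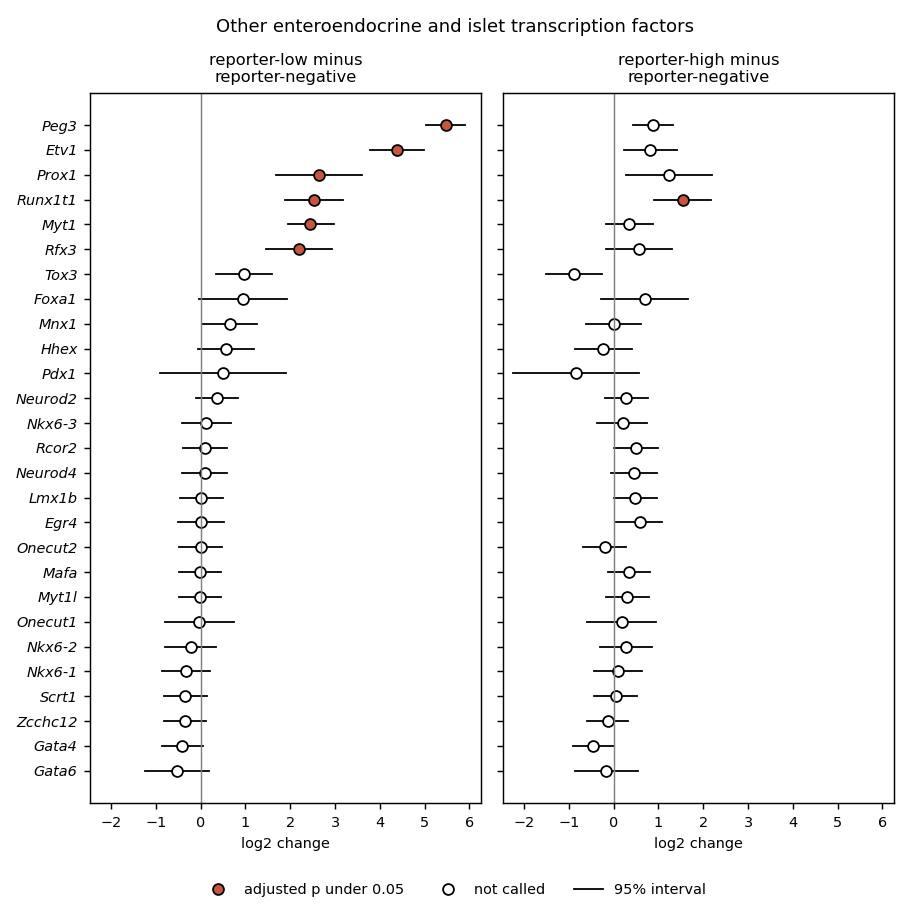
Log2 change (horizontal axis) with 95% intervals for the 27 other endocrine and islet factors measured, in low minus negative and in high minus negative cells, with filled points where the limma adjusted p was under 0.05. The 6 filled points in low cells are Peg3, Etv1, Prox1, Runx1t1, Myt1 and Rfx3, and the 1 in high cells is Runx1t1, while most of the list lies near 0.

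Regulators that act before or around Neurog3 were read from a list of 18, all measured. In low against negative cells 1 rose and 1 fell, close to the 3.42% and 2.54% of all genes called. Hes1, the Notch effector that represses Neurog3 and Atoh1, had 7.53 and 7.71 on reporter-high, 5.97 and 6.04 on reporter-low and 7.70 and 8.42 on reporter-negative arrays. The low pair was below the other 4 arrays, and Hes1 fell by 2.06 ± 0.26 on the log2 scale against negative cells (adjusted p = 0.00803). That call was lost without the second negative array (0.0534) or the second low array (0.0514). Dll1, a Notch ligand of secretory progenitors, differed by -0.76 (adjusted p = 0.0815).

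Atoh1, the basic helix-loop-helix factor that commits progenitors to the secretory lineages, was highest in the high gate. It had 10.38 and 10.80 on reporter-high, 7.01 and 8.0 on reporter-low and 8.31 and 8.54 on reporter-negative arrays. Low and negative arrays did not overlap, with low cells beneath negative cells by a difference of -0.93 that did not pass (adjusted p = 0.205). High cells were 4.47-fold above negative cells (adjusted p = 0.0237) and 8.50-fold above low cells (adjusted p = 0.00512). The call against negative cells was lost without either negative array (0.168 and 0.145) or the second high array (0.0717).

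Bhlha15 (Mist1), a basic helix-loop-helix factor of secretory cells, had 9.43 and 9.81 on reporter-high, 7.47 and 7.95 on reporter-low and 5.71 and 5.66 on reporter-negative arrays. Its gates formed 3 separate levels, 15.3-fold in high over negative cells (adjusted p = 0.00186) and 4.06-fold in low over negative cells (adjusted p = 0.00618). The low against negative call was lost without either negative array (0.0691 and 0.0665). Sox9, a factor of crypt progenitors and Paneth cells, was 3.49-fold higher in high than in negative cells (adjusted p = 0.00862). It lost that call without either negative array (0.0993 and 0.117), and it was 2.71-fold higher in high than in low cells (adjusted p = 0.00697), a call lost without either low array (0.0539 and 0.0534).

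Rest, the repressor of neuronal and endocrine genes, had 5.13 and 5.30 on reporter-high, 5.44 and 5.55 on reporter-low and 6.11 and 6.04 on reporter-negative arrays. The gates did not overlap, the negative pair being highest. Rest fell by 0.86 ± 0.18 in high against negative cells (adjusted p = 0.0476), a call at the edge of the threshold that was lost in 11 other fits at that same threshold, while the difference of -0.58 in low against negative cells did not pass (adjusted p = 0.135). Sox4, an HMG-box factor of early endocrine differentiation, differed from negative cells by -0.72 in high cells and by -0.03 in low cells (adjusted p = 0.227 and 0.985). In high against negative cells the list had 3 members higher (Bhlha15, Sox9 and Atoh1) and 1 lower, beside 1.36% and 3.35% of all genes. In high against low cells it had 4 higher (those 3 and Hes1) and none lower, beside 1.01% and 3.89% of all genes. Without the first or the second low array 2 of the 4 kept their calls, Atoh1 and Bhlha15, and Hes1 also lost its own without the second high array (0.0701) and with array weights (0.0546). In high against negative cells 1 of the 4 calls, that of Bhlha15, was kept without either negative array.

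**Figure D4:**
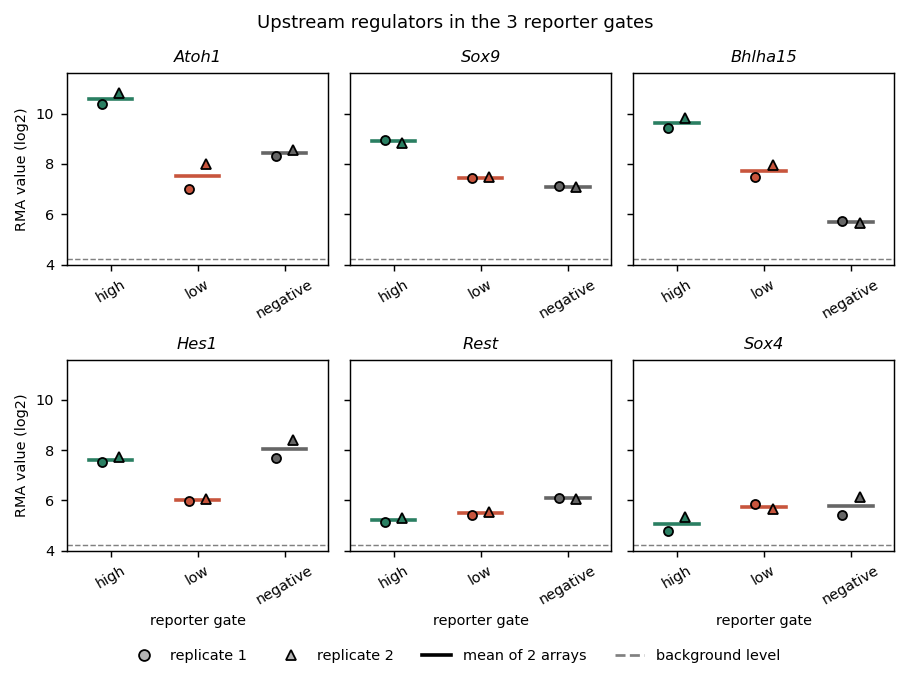
RMA values (log2, vertical axis) of 6 upstream regulators in the reporter-high, reporter-low and reporter-negative gates, with 1 point per array, a bar for the mean of the 2 arrays and a dashed line at the background level of 4.23. Atoh1, Sox9 and Bhlha15 are highest in high cells and Hes1 is lowest in low cells, whereas Sox4 lies between 4.77 and 6.13 on every array.

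Genes for hormones, amine synthesis and secretory granules, the output of mature endocrine cells, rose in the same low gate as the factors. Whether the same single cells held both was not measured. Of 18 listed, 17 were measured and all 17 rose, beside 3.42% of all genes. The median change was 5.85 on the log2 scale, against -0.03 over all genes. Without the first negative array 13 kept their calls, with Ghrl, Gast, Ddc and Iapp lost. Neurotensin (Nts) was at least 127.0-fold, and secretogranin (Scg2) at least 40.3-fold higher in low than in negative cells (adjusted p = 0.000198 and 0.000208). The incretin gene Gip was 86.4-fold and the proglucagon gene Gcg 83.2-fold higher (adjusted p = 0.000208 and 0.000387). In high against low cells 15 of the 17 fell, all but Ghrl and Gast, and none rose, beside 3.89% and 1.01% of all genes. With array weights 13 kept their calls, with Cck and Iapp lost. Iapp also lost its call with only the arrays of the 2 gates compared, and with arrays centred on their medians.

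In high cells some hormone genes were called where none of the 10 factors was. Against negative cells 4 hormone genes rose and Ddc, an enzyme of amine synthesis, fell by 1.58 on the log2 scale (adjusted p = 0.0223). Of all genes 1.36% were called higher and 3.35% lower there. Gastrin (Gast) had 12.76 and 11.01 on reporter-high, 11.89 and 9.11 on reporter-low and 4.99 and 4.88 on reporter-negative arrays, which was 123.0-fold higher in high than in negative cells (adjusted p = 0.0167). Ghrelin (Ghrl) had 11.48 and 9.38 on reporter-high, 12.73 and 12.00 on reporter-low and 6.18 and 6.51 on reporter-negative arrays, 17.0-fold higher in high than in negative cells (adjusted p = 0.0223). High and low arrays overlapped for Gast. On the same high arrays Neurod1, Rfx6 and St18 were at background. The other calls were Gip and Sst, at 3.36-fold and 4.32-fold (adjusted p = 0.0237 and 0.0241). These 5 calls became 0 without the first or the second negative array, and 9 where dim genes were left out.

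Markers of other cell types moved between the gates as well. Against negative cells, 3.42% of all genes were called higher and 2.54% lower in low cells. The shares in high cells were 1.36% and 3.35%. All 9 measured Paneth cell markers rose in high and in low cells, with list means of 12.08 to 12.43 on reporter-high, 11.38 to 11.52 on reporter-low and 8.28 to 8.66 on reporter-negative arrays. Without the second negative array 4 of these calls were kept in high and 6 in low cells, and without the first 5 were kept in high cells. Of 9 lymphocyte markers, 6 rose in low cells and 7 fell in high cells against negative cells, with list means of 6.26 to 6.42 on reporter-high, 9.07 to 9.18 on reporter-low and 7.82 to 8.07 on reporter-negative arrays. All of these lymphocyte calls were lost without the first negative array, and 1 in low and 0 in high cells were kept without the second. Without either low array 3 of the 6 in low cells were kept. Of 8 myeloid markers 3 rose in low cells, of which 0 were kept without the first and 1 without the second negative array. Of 9 cell cycle genes 8 fell in low cells, of which 3 were kept without the first negative, 2 without the second negative and 4 without the second low array. In high against negative cells 6 of the 9 cell cycle genes also fell. After quantile normalization 4 of these 6 kept their calls, which depended on single arrays too. List means were 6.56 to 6.66 on reporter-high, 6.14 to 6.21 on reporter-low and 7.96 to 7.97 on reporter-negative arrays. The myeloid markers Tyrobp and Fcer1g fell in high against negative cells, calls lost after quantile normalization. Of the lists in this paragraph, the macrophage marker Adgre1 was the only gene above background on no array. The part of these cells in the levels of the 10 factors was not tested.

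Several of the factors are also used in neurons, and enteric neurons and glia could enter a crypt preparation. Of 14 markers of those cells 12 were measured, with list means of 4.27 to 4.42 on reporter-high, 4.25 to 4.34 on reporter-low and 4.03 to 4.05 on reporter-negative arrays, all close to the background level. Elavl4, Gfap, Chat and Vip were above background on none of the 6 arrays. Sox10 (4.34 to 5.07) and Hand2 (4.46 to 5.10) were above it on all 6. Tubb3 had 4.94 and 4.72 on reporter-low against 4.06 and 3.62 on reporter-negative arrays. Uchl1 had 4.48 and 5.28 against 4.30 and 4.11. In the low gate 6 of the 12 were above background on neither array. The part of such cells in the levels of the 10 factors was not tested. Ret, a receptor of enteric neurons that endocrine cells can also carry, was the only marker of the list called, 5.90-fold higher in low and 1.90-fold higher in high than in negative cells (adjusted p = 0.00128 and 0.0462). The call in high cells was lost in 9 other fits at the same threshold, among them those without either negative array (0.259 and 0.208) or the second high array (0.0925).

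The genes whose profile over the 6 arrays came nearest to each factor were found by the root mean square distance between profiles centred on each gene's mean, over all single-symbol genes that are not among the 10. Adgrg4, an adhesion receptor gene, was nearest to both Neurod1 (0.20) and Rfx6 (0.33) on the log2 scale. It had 4.28 and 4.24 on reporter-high, 9.29 and 9.35 on reporter-low and 4.13 and 4.07 on reporter-negative arrays. Amigo2 and Trpa1, a cation channel gene, followed for Neurod1 (0.28 and 0.29), and Scgn, a calcium-binding protein gene, and Peg3 for Rfx6 (0.41 and 0.43). Pax6 lay nearest to Sphkap, Prnp and Etv1 (0.20, 0.22 and 0.24). Isl1 lay nearest to Bex2, Etv1 and the secretin gene Sct (0.21, 0.32 and 0.33).

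Nkx2-2, with its middle level in high cells, was nearest to Scg5, Tm4sf4 and Ptprn2 (0.25, 0.37 and 0.40), of which Scg5 and Ptprn2 encode granule proteins. St18 was nearest to Entpd1, Cd200r1 and Ids (0.16, 0.19 and 0.19), and Insm1 to Hsf2, Serinc1 and Cd101 (0.12 each). Entpd1, Cd200r1 and Cd101 are known as surface molecules of leukocytes, and the lymphocyte marker means given above were also highest on the low arrays. Whether leukocyte RNA had a part in the St18 or Insm1 signal was not tested. Pax4 was nearest to Ankrd55, Marveld1 and Cers5 (0.08, 0.09 and 0.09), and Foxa2 to Tmem9, Pilrb2 and B3galnt2 (0.11, 0.14 and 0.16), where small changes leave many genes at a like distance. Neurog3 spanned less than 1 between gate means and was not matched.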

How the data were processed

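The 10 factors and all gene lists were chosen with earlier results of these data known. RNA was extracted with a column kit including DNase treatment, amplified and biotin-labelled with whole-transcript kits, per the labels' protocols. The log2 values are RMA values that, per the submitters' processing notes, the authors computed in Affymetrix Expression Console 1.3.0.187, and they were used as deposited. Precision is limited by having 2 arrays a gate. Of 35556 probe sets, 21789 carry a single symbol, 1621 carry several and 12146 are unnamed here. A gene with several probe sets was read from that with the highest mean. Symbols were updated through the RefSeq gene table of GRCm38.p6 (21698 matched).

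One limma 3.58.1 fit (lmFit, eBayes, R 4.3.3) over 19938 genes held the 6 arrays as 3 gate means, with Benjamini-Hochberg adjustment over all genes and calls under 0.05. It was tested on simulated data. Standard errors and intervals are those of limma. Named genes were the 10 factors, Cfap126, Atoh1, Rest, Sox4, Hes1, the 4 members with the smallest p per list and comparison, and the 3 nearest profiles of each factor spanning at least 1. Prox1, Rfx3, Pdx1, Foxa1, Sst and Ret were named after their values were seen. Alternatives covered the prior, arrays fitted, dim-gene filter, probe set rule, scaling, array weights, threshold, replicate block and leaving out each array. Those for the upstream, hormone and marker lists were added after seeing the data. Tables and figures used Python 3.11.15, pandas 2.3.3, numpy 2.4.6 and matplotlib 3.10.9.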

Additional observations from a re-analysis of the deposited data

How the results depend on the processing

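The factors called higher in low than in negative cells numbered 8, and 6 to 8 under the alternatives, those lower in high than in low cells 7, and 5 to 7. Without 1 array the counts were 6 to 7 and 5 to 7. In high against negative cells the count of 0 became 1 with only genes above background (Nkx2-2), and 0 to 1 without 1 array. No called change of a factor turned its direction in any alternative run. Pax4 and Insm1 in low against negative cells, and Nkx2-2 and Insm1 in high against low cells, were the factor calls lost, also at an adjusted p under 0.01. With a replicate block 8 were called in low and 0 in high against negative cells, and 7 in high against low cells. Of the hormone list 8 were then called in high against negative cells, beside 5 without the block. Same-numbered arrays deviated together only weakly (correlations of 0.08 to 0.10), so the numbers were not taken as pairs.

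Over all genes the calls varied more. Low against negative had 1188, against 2150 with array weights, 353 at an adjusted p under 0.01 and 187 to 565 without 1 array. High against negative had 939, against 561 with only those 4 arrays, 621 after quantile normalization, 620 with array weights, 61 at 0.01 and 13 to 1919 without 1 array. High against low had 978, against 499 with only those 4 arrays, 607 with array weights, 319 at 0.01 and 381 to 1739 without 1 array. The causes were not tested. A left-out array leaves its gate with 1, assumed to vary like the others. Signal near background limits Neurod1, Rfx6 and St18 outside the low gate, and Isl1 in the negative gate, to bounds.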
